A study of Mus musculus with 12 samples.

Results

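The transcripts of epididymal white adipose tissue (eWAT), a visceral fat pad of male mice, were compared between mice adapted to 4°C and mice kept at 30°C. With 4°C, 2.10% of all genes passed the test and were higher. This held for 8 of 17 measured genes of triglyceride synthesis and 10 of 19 of fatty acid synthesis. They included the acyltransferases *Agpat2*, *Dgat2*, and *Gpat3* (log2 differences of 2.16, 1.83, and 1.68) and *Fasn* and *Elovl6*, which make and lengthen fatty acids (1.75 and 2.68). Of the 10 genes of fatty acid synthesis, 3 passed whichever of the 6 arrays was left out, and *Fasn* and *Elovl6* were not among these. The clock output factor *Dbp* had the highest increase of all genes that passed the test (3.48), and the clock activators *Arntl* and *Npas2* were lower (-2.39 and -1.85). Without 4°C array 1, neither *Arntl* nor *Npas2* passed. The pyruvate dehydrogenase kinase *Pdk4* was lower (-1.46). Of 19 macrophage genes 4 passed the test, all lower, beside 0.942% of all genes that were lower. Of these 4, 1 passed whichever array was left out. *Mmp12*, the elastase of lipid-laden macrophages, was lower (-2.94), a result that was lost without 4°C array 1 or 3 or 30°C array 2. *Ucp1*, the uncoupling protein of brown fat, stayed below the background level on all 6 arrays, where neither its absence nor a change can be measured.

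The comparison used 6 of the 12 arrays of the series, the 3 labelled 4°C and the 3 labelled 30°C, and every gene that could be named, 14860 in all. A gene was a row of the deposited table with a single gene symbol, and where several rows named the same gene, as for 135 genes, the row with the highest mean over the 12 arrays was taken. Mice were C57BL/6J males, 7 to 8 weeks old at the start. The 4°C group spent 1 week at 18°C to adapt, followed by 5 weeks at 4°C. The 30°C group, at the thermoneutral temperature of mice, was moved there directly and kept for a matching time, so that the groups differ in the 18°C week as well as in the final temperature. The other 6 arrays came from mice taken stepwise to –10°C, or to –20°C by day and –10°C by night (–10°C/–20°C), with the same 5 weeks of cold. The labels number 3 biological replicates in each group and name no mouse, cage, or day, and the p-values therefore reflect only how much these arrays vary, which may be technical. The hour of day at which tissue was collected is not given in the sources used here.

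White fat stores energy as triglyceride, made by adding fatty acids to a glycerol backbone, and releases it by lipolysis. Fatty acids come from the blood or are made in the cell from glucose, through pyruvate, mitochondrial citrate, and cytosolic acetyl-CoA. In the cold, sympathetic nerves drive lipolysis and, in brown and beige fat, the burning of fatty acids for heat through *Ucp1*, and fat synthesis is known to run alongside that burning in brown fat. Epididymal fat is one of the depots in which beige cells appear least readily.

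Values are log2 signals, so that a difference of 1 is 2-fold, and are given for arrays 1, 2, and 3 of a group in that order. The 6 arrays had medians of 5.22 to 5.44, and from 10356 to 10534 genes on each exceeded 4.52, a background level set by olfactory receptor genes, which fat should not express. Correlations over all genes ran from 0.974 to 0.992 within a group and from 0.978 to 0.989 between the 2 groups, so that the groups did not separate over the whole transcriptome. Adipocyte genes were at the top of the scale, with *Adipoq* at 12.33, 12.35, and 12.20 with 4°C and 12.22, 12.21, and 12.33 with 30°C, and none of 7 adipocyte markers passed the test. None of the measured markers of mesothelium (5), epididymis and testis (7), skeletal muscle (4), or red blood cells (2) passed it. The whole tissue was assayed, so that fewer cells of a type and less RNA per cell cannot be told apart.

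Each gene was tested with limma over the 4 groups, and a gene was called where its p-value, adjusted over all 14860 genes by Benjamini-Hochberg, was under 0.05. With 4°C against 30°C, 452 genes, 3.04% of those tested, were called, 312 higher (2.10%) and 140 lower (0.942%). Counts of called list members below are to be read beside these shares. The 3 arrays of the 2 groups did not overlap in any of the 452, which follows largely from the call, made on the same arrays. Over all genes, 17.1% had no overlap. Among the calls, the median difference was 0.74 for the genes that were higher and -0.68 for those that were lower, and the median over all genes was 0.01. A difference of at least 2-fold was reached by 87 of the higher and 32 of the lower genes, and at least 4-fold by 9 and 5. Only 6 of the 452 lay below background on all 6 arrays.

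**Figure D1:**
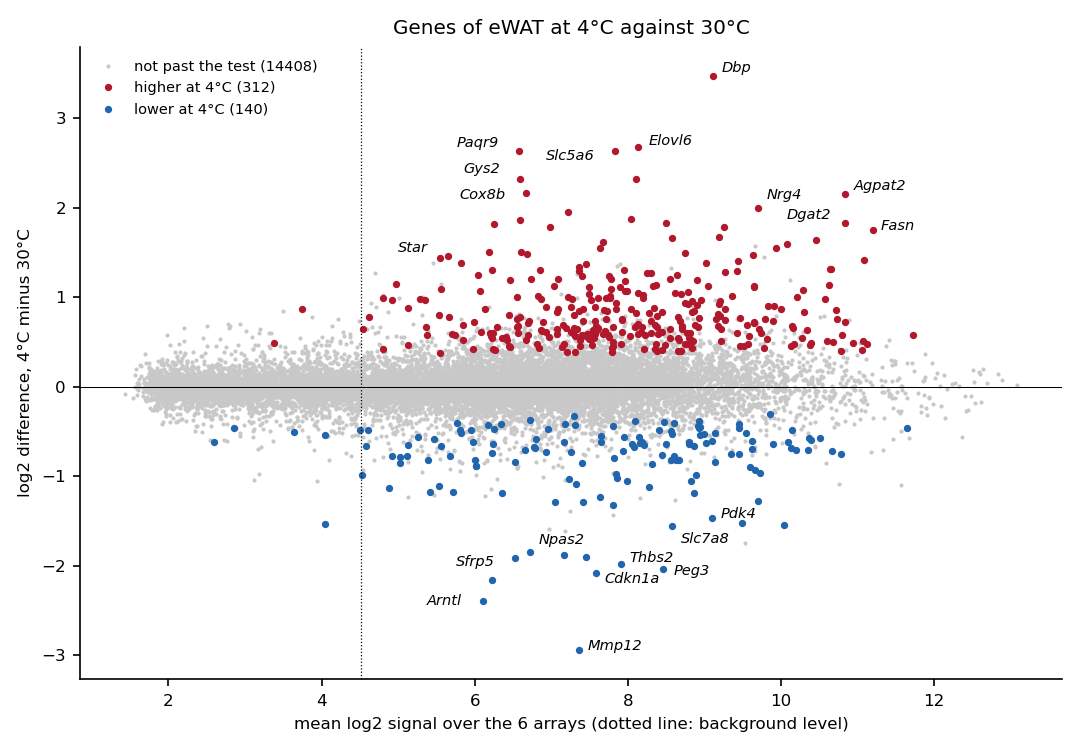
Each point is 1 of the 14860 genes. The horizontal axis is the mean log2 signal over the 6 arrays, with the background level of 4.52 as a dotted line, and the vertical axis is the log2 difference, 4°C minus 30°C. Red points (312) were called higher and blue points (140) lower, and named genes lie mostly well above that level.

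The number of calls depended on single arrays. The count was 129 without 4°C array 1, 427 without 4°C array 2, 190 without 4°C array 3, 199 without 30°C array 1, 197 without 30°C array 2, and 581 without 30°C array 3. Whichever of the 6 arrays was left out, the same 119 genes were called, 86 higher and 33 lower. A gene described here held its call without any single array unless the arrays that it depended on are given with its values. The form of the array names (with or without a letter G) splits the 4°C and the 30°C group alike into 2 arrays without it and 1 with it, and 386 of the 452 genes were still called with that form as a block in the fit. All 6 arrays of the colder groups have the letter, so that the form is in part confounded with each comparison of those groups. The sources used here do not say what the letter stands for.

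The enzymes that assemble triglyceride carried some of the smallest p-values of the comparison, *Agpat2* the smallest of all genes. Of 17 measured genes of this pathway, 8 were called higher and 1 lower, and the median difference was 0.40, beside 0.01 for all genes. *Agpat2*, which adds the second fatty acid to the glycerol backbone, measured 12.01, 11.63, and 12.12 with 4°C and 9.80, 9.84, and 9.63 with 30°C, a difference of 2.16 (SE 0.13, limma adjusted p = 4.31e-05). No array with 4°C came near any with 30°C. *Dgat2*, which adds the last fatty acid, gave 11.91, 11.39, and 11.95 with 4°C and 9.95, 9.93, and 9.87 with 30°C (difference 1.83, SE 0.14, limma adjusted p = 0.000215). The first acylation is made by *Gpat3* and *Gpam*, and both were higher. *Gpat3* gave 10.17, 9.89, and 10.05 with 4°C, against 8.05, 8.46, and 8.56 with 30°C (1.68, SE 0.14, limma adjusted p = 0.000262). *Gpam* gave 10.99, 10.74, and 10.92 with 4°C, against 9.32, 9.0, and 9.54 with 30°C (1.59, SE 0.15, limma adjusted p = 0.000607). *Gpd1*, which makes the glycerol 3-phosphate that starts the pathway, differed by 1.55 (SE 0.23), *Dgat1* by 1.29 (SE 0.17), and the phosphatase *Lpin1* by 0.72 (SE 0.11). *Mogat1*, which starts from monoacylglycerol, differed by 0.86 (limma adjusted p = 0.0279), and its call was lost without 4°C array 1, 2, or 3 or 30°C array 1 or 2 (adjusted p of 0.0576 to 0.124). The 1 member that was lower, *Plpp3*, a lipid phosphatase of the cell surface, differed by -0.71 (limma adjusted p = 0.00507). Other isoforms of the same steps were not called, as *Agpat1*, *Agpat3*, *Agpat4*, *Agpat5*, and *Lpin2* differed by 0.12, 0.16, 0.02, 0.26, and -0.01. In the same direction moved *Tmem120a*, a membrane protein of fat cells, at 10.22, 9.996, and 10.24 with 4°C and 8.33, 8.27, and 8.48 with 30°C (1.79, SE 0.13, limma adjusted p = 0.000187).

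Genes of fatty acid synthesis were higher by more at the median but varied more between arrays. Of 19 measured, 10 were called higher and none lower, and the median difference was 0.90. *Fasn*, fatty acid synthase, gave 12.32, 11.38, and 12.52 with 4°C and 10.27, 9.85, and 10.84 with 30°C (1.75, SE 0.29, limma adjusted p = 0.00932). *Elovl6*, which lengthens palmitate, gave 9.74, 8.12, and 10.54 with 4°C and 6.67, 6.52, and 7.19 with 30°C (2.68, SE 0.48, limma adjusted p = 0.0155). Array 2 was the lowest of the 4°C group for both genes. The same was seen for *Thrsp*, a lipogenic nuclear protein, at 11.99, 11.32, and 12.09 with 4°C and 10.38, 10.32, and 10.45 with 30°C (1.42, limma adjusted p = 0.0017). *Acacb*, an acetyl-CoA carboxylase, differed by 1.06 (limma adjusted p = 0.00253) and *Aacs*, which makes acetoacetyl-CoA in the cytosol, by 1.5 (SE 0.22, limma adjusted p = 0.00583). *Acaca*, the cytosolic acetyl-CoA carboxylase, differed by 1.65 (SE 0.33, limma adjusted p = 0.0244), the desaturase *Scd2* by 1.47, the citrate carrier *Slc25a1* by 1.08, *Pgd* of the pentose phosphate pathway by 0.90, and *Elovl5* by 0.72. Calls were less firm for several of these. That of *Fasn* was lost without 4°C array 1 (adjusted p = 0.0533), and that of *Elovl6* without 4°C array 1 or 30°C array 1 or 2 (0.0635 to 0.073). *Acaca* and *Slc25a1* were not called without 4°C array 1 or 3 or 30°C array 1 or 2 (0.0773 to 0.114). *Scd2* and *Pgd* lost theirs without 4°C array 1 or 3 or 30°C array 1 (0.0513 to 0.0758), and *Elovl5* without any array but 30°C array 3 (0.073 to 0.152). *Acly*, which makes cytosolic acetyl-CoA from citrate, gave 10.47, 9.54, and 11.34 with 4°C and 8.50, 8.81, and 9.31 with 30°C without overlap, but was not called (1.58, SE 0.39, limma adjusted p = 0.0568). *Scd1*, the main stearoyl-CoA desaturase of fat, was near the top of the scale in both groups, with a difference of 0.14 (limma adjusted p = 0.527).

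**Figure D2:**
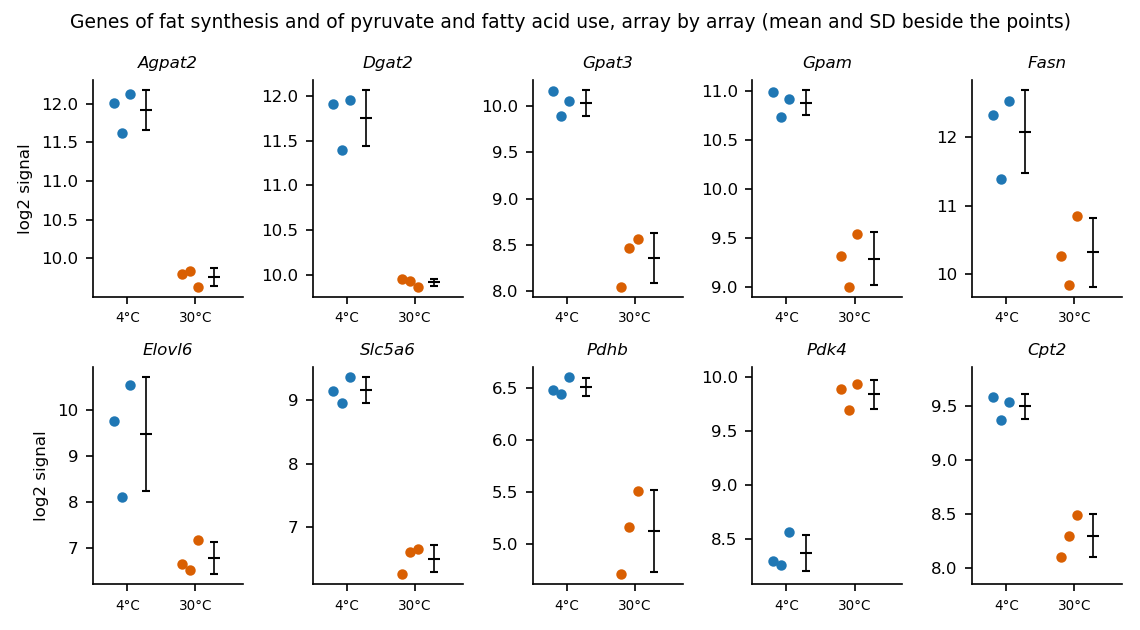
Log2 signals of 10 genes on the 3 arrays with 4°C (left, blue) and the 3 arrays with 30°C (right, orange), with the mean and SD beside the points. Each panel has its own vertical axis. In all 10 panels the groups do not overlap, Pdk4 alone is lower with 4°C, and 4°C array 2 of Fasn (11.38) and Elovl6 (8.12) lies well below the other 2 arrays.

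Regulators and sterol genes gave weaker calls. Of 11 regulators of fat synthesis, 3 were called higher and the median was 0.34, namely *Insig1*, which holds sterol regulatory element-binding proteins in the endoplasmic reticulum (1.12, limma adjusted p = 0.0488), *Srebf1*, which encodes the one that drives fatty acid synthesis (1.04, limma adjusted p = 0.0343), and *Nr1h3*, the liver X receptor alpha (0.51, limma adjusted p = 0.0221). None of the 3 held without every array. *Insig1* was lost without each array but 4°C array 2 (adjusted p of 0.0777 to 0.198) and with the name form as a block (0.0587), *Srebf1* without 4°C array 1 or 3 or 30°C array 1 or 2 (0.119 to 0.145), and *Nr1h3* without 4°C array 1 or 30°C array 1 or 2 (0.0684 to 0.113). *Mlxipl*, which encodes the glucose-sensing factor ChREBP, differed by 0.63 and *Pparg* by 0.27 and neither was called. Of 16 genes of cholesterol synthesis and uptake, 3 were called higher (median 0.43), which were *Cyp51* (1.62), *Nsdhl* (1.11), and *Hmgcs1* (0.97), each lost without 4°C array 1 or 3 or 30°C array 1 and for *Cyp51* and *Hmgcs1* also 30°C array 2 (0.061 to 0.113). In the RefSeq promoter windows of mouse (build GRCm38.p6, 250 bases before to 50 after a gene's start), the sterol element TCACNCCAC was searched on both strands. Of the 22 called genes of triglyceride and fatty acid synthesis and their regulators, 18 had a window. None of their 23 windows held the element, beside 1.24% of all 32851 windows. At that share, 23 windows are too few to tell these genes from others.

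Transport of vitamins and the making of coenzyme A, which carries the acyl groups of all these reactions, included one of the largest increases. *Slc5a6*, the sodium-dependent carrier of biotin and pantothenate, gave 9.13, 8.95, and 9.36 with 4°C and 6.27, 6.61, and 6.66 with 30°C (2.63, SE 0.19, limma adjusted p = 0.00016). Biotin is the cofactor of *Acaca*, *Acacb*, and *Pcx*, and pantothenate the precursor of coenzyme A. *Pank3* and *Coasy*, the kinase that begins and the enzyme that ends coenzyme A synthesis, differed by 1.32 (limma adjusted p = 0.0127) and 1.19 (limma adjusted p = 0.00276), and *Pank3* was not called without 4°C array 1 (adjusted p = 0.0651). *Pank3* and *Coasy* were named after their values were seen. Of 9 measured genes of coenzyme A synthesis, with *Slc5a6* counted among them, only these 3 were called, and the median difference was 0.31.

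Upstream of fat synthesis, a minority of the genes of glycolysis and glycogen metabolism were called. Of 14 genes of glucose uptake and glycolysis, 3 were called higher (median 0.30). *Hk2*, the insulin-responsive hexokinase, gave 8.68, 8.29, and 8.55 with 4°C and 7.17, 7.43, and 7.70 with 30°C (1.07, limma adjusted p = 0.00387). *Pfkfb3*, which makes the activator of phosphofructokinase, differed by 0.98 (limma adjusted p = 0.00562), and *Pfkl* by 0.74, the last lost without 4°C array 1 or 3 or 30°C array 1 or 2 (adjusted p of 0.0712 to 0.0881). The insulin-responsive glucose carrier *Slc2a4* differed by 0.54 and was not called (limma adjusted p = 0.166). In glycogen metabolism 3 of 13 genes were called, all of synthesis. *Gys2*, best known as the glycogen synthase of liver, gave 8.07, 7.12, and 8.05 with 4°C and 5.41, 4.79, and 6.09 with 30°C (2.32, SE 0.41, limma adjusted p = 0.0135), and *Gys1*, the muscle form, 9.66, 9.44, and 9.66 with 4°C and 8.79, 8.71, and 8.83 with 30°C (0.81, SE 0.08, limma adjusted p = 0.000953). *Gys2* thus had the larger difference and *Gys1* the smaller error. The branching enzyme *Gbe1* differed by 0.96 (limma adjusted p = 0.0253). Both *Gys2* and *Gbe1* were lost without 4°C array 1 or 3 or 30°C array 1 or 2 (0.0515 to 0.12).

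The pyruvate dehydrogenase complex turns pyruvate into mitochondrial acetyl-CoA, and of 10 genes of the complex, its kinases, and pyruvate carboxylase, 5 were called higher and 1 lower, with a median of 0.81. *Pdhb*, a subunit of its first enzyme, gave 6.48, 6.45, and 6.61 with 4°C and 4.71, 5.16, and 5.51 with 30°C (1.38, SE 0.21, limma adjusted p = 0.00639). *Pdhx* and *Dlat*, of its core, differed by 1.13 and 1.04 (limma adjusted p = 0.00583 and 0.00514). *Pcx*, pyruvate carboxylase, differed by 0.86 and the kinase *Pdk1* by 0.83, and both calls depended on 4°C arrays 1 and 3 and 30°C arrays 1 and 2 (adjusted p of 0.0704 to 0.129 without one of them). Against these, *Pdk4*, the kinase that shuts the complex when fatty acids are burned, gave 8.30, 8.26, and 8.56 with 4°C and 9.89, 9.69, and 9.93 with 30°C (-1.46, SE 0.15, limma adjusted p = 0.000953). All 3 arrays with 4°C thus lay well below those with 30°C. *Pdk2* and *Pdk3* differed by -0.20 and -0.17 and were not called.

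Mitochondrial genes had small positive differences, most of which did not pass the test. All 40 measured subunits of the respiratory chain and ATP synthase had a positive difference, with a median of 0.34, and 8 were called. For 25 of the 40 the 3 arrays with 4°C all lay above those with 30°C, beside 17.1% of all genes without overlap in either direction. *Cox8b*, a heart and brown fat subunit of cytochrome c oxidase, stood apart with 8.10, 7.14, and 8.01 with 4°C and 5.83, 5.14, and 5.77 with 30°C, and was the only one of the 8 whose call did not depend on a single array. The other 7 differed by 0.48 to 0.79, from *Atp5g3* to *Ndufs1*, and all 7 lost their calls without 4°C array 1 (adjusted p of 0.102 to 0.146) and without 30°C array 1 or 2 (0.0563 to 0.144). All but *Ndufa1* also lost them without 4°C array 3 (0.0834 to 0.144), *Ndufa1*, *Ndufb3*, and *Uqcrq* without 4°C array 2 (0.0503 to 0.0539), and *Uqcrq* without 30°C array 3 (0.0682) and with the name form as a block (0.0503). Of 15 genes of the tricarboxylic acid cycle, 3 were called higher (*Idh3a*, *Cs*, and *Sdhd*, 0.44 to 0.67) and the median was 0.31. These 3 calls were lost without 4°C array 1 or 30°C array 1 or 2 (0.0555 to 0.199), and *Cs* and *Sdhd* also without 4°C array 3 (0.164 and 0.0937). Of 17 genes of mitochondrial fatty acid oxidation, 6 were called higher, with a median of 0.37. Carnitine palmitoyltransferase 2, *Cpt2*, led them with 9.59, 9.37, and 9.53 with 4°C and 8.10, 8.30, and 8.50 with 30°C (1.19, SE 0.13, limma adjusted p = 0.00121), whereas *Cpt1a*, the step that malonyl-CoA inhibits, differed by -0.10 and was not called. The other 5 called genes differed by 0.46 to 0.57, and each was lost without 4°C array 1 or 3 or 30°C array 1 or 2 (0.066 to 0.191), *Etfdh* also without 4°C array 2 (0.0766) and with the name form as a block (0.0506). Of 20 members of the mitochondrial carrier family, counted by family and not by where they lie, 6 were called higher (median 0.26). Among them was the dicarboxylate carrier *Slc25a10* (1.38, limma adjusted p = 0.0295, lost without each array but 4°C array 2 at 0.0591 to 0.139).

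Peroxisomes, which shorten very long fatty acids and import their enzymes through the peroxin proteins, had 8 of 21 measured genes called higher and none lower, with a median of 0.53. Of these 8, 6 were peroxins. *Pex16*, needed to form the membrane, gave 8.94, 8.53, and 9.20 with 4°C and 7.66, 7.50, and 7.68 with 30°C (1.28, SE 0.16, limma adjusted p = 0.00264). *Pex11a*, which helps peroxisomes divide, differed by 1.21 (limma adjusted p = 0.00584), the import receptor *Pex5* by 0.90 (0.00646), and its docking partner *Pex14* by 0.59 (0.00722). *Pex3* (0.69) was lost without 4°C array 1 or 30°C array 1 (adjusted p = 0.073 and 0.0511), and *Pex13* (0.55), the carrier *Abcd3* (0.78), and *Hsd17b4* (0.54) without 4°C array 1 or 3 or 30°C array 1 or 2 (0.0514 to 0.143). Enzymes of the matrix had few calls, with *Ehhadh* at 1.37 (limma adjusted p = 0.0751) and catalase, *Cat*, at 0.05. Branched-chain amino acid breakdown, which feeds the same acyl-CoA pools, had 2 of 20 genes called, *Bcat2* (0.85, limma adjusted p = 0.00771) and *Bckdhb* (0.59, lost without each array but 30°C array 3 at 0.0559 to 0.147), and a median of 0.29. Over all genes 2.10% were called higher.

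**Figure D3:**
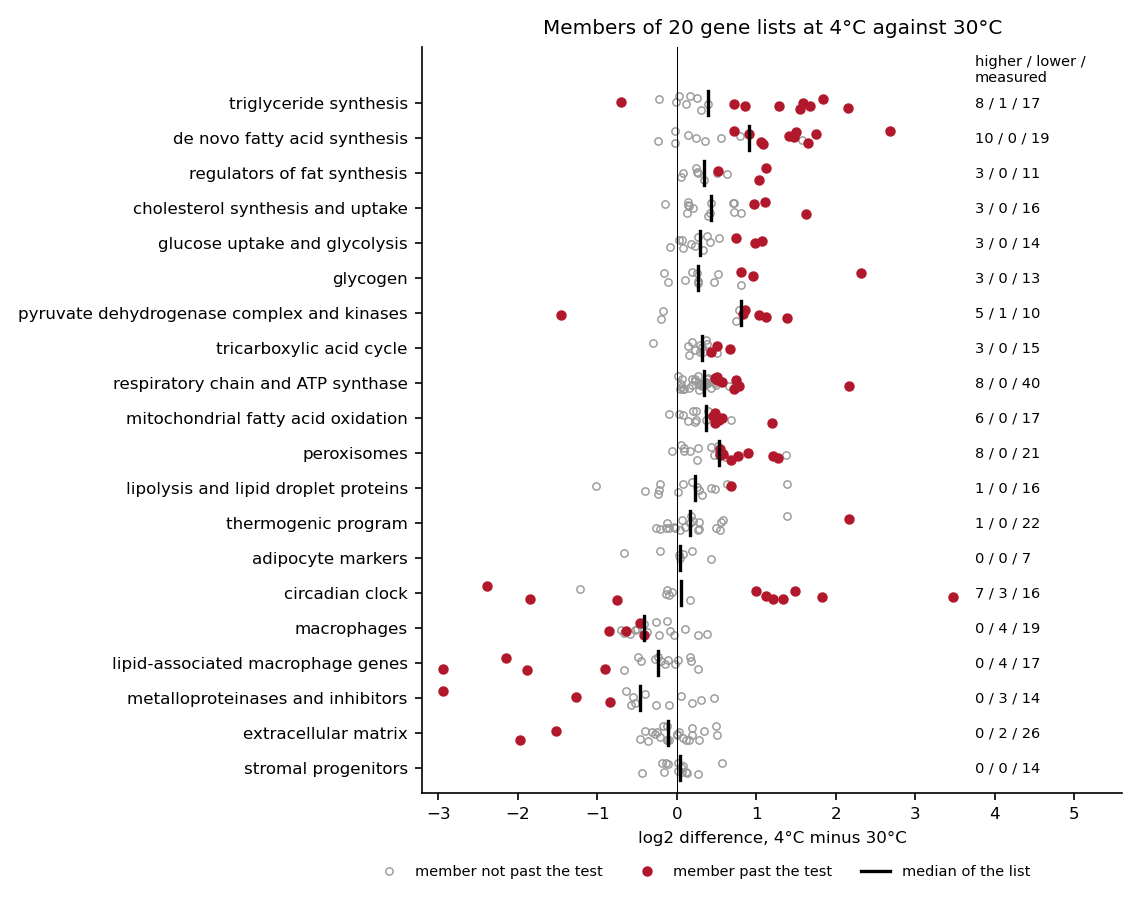
Members of 20 gene lists, 1 row per list, placed on the horizontal axis by their log2 difference, 4°C minus 30°C. Filled red points were called and open points were not, a bar marks each list's median, and the numbers at the right give the members higher, lower, and measured. Lists of fat synthesis, pyruvate use, and mitochondria lie mostly right of 0, and those of macrophages and metalloproteinases mostly left.

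Of 22 measured genes of the thermogenic program of brown fat, 1 was called, a share near that over all genes, and the median difference was 0.17. The called gene was *Cox8b* (2.17). In 6 of the 22 all arrays with 4°C lay above those with 30°C and in 1 below, beside 17.1% of all genes without overlap in either direction. For 7 of the 22 the 30°C mean was under the background level. *Ucp1* gave 3.78, 3.65, and 3.93 with 4°C and 3.90, 3.76, and 3.80 with 30°C, all below the background of 4.52. The thyroid hormone deiodinase *Dio2* (4.45, 4.38, and 4.42 with 4°C, against 3.90, 3.99, and 3.72 with 30°C) and the elongase *Elovl3* (3.0, 2.94, and 4.16 with 4°C, against 2.63, 2.85, and 2.96 with 30°C) were also below it on all 6 arrays, so that no fold change is given. *Cidea*, a lipid droplet protein of brown and beige fat, gave 6.07, 5.75, and 6.62 with 4°C and 4.70, 4.74, and 4.85 with 30°C. The groups did not overlap, but the difference of 1.38 (SE 0.37) missed the threshold (limma adjusted p = 0.0751). The coactivator *Ppargc1a* overlapped between groups, with 7.05, 7.85, and 6.44 with 4°C and 6.89, 7.14, and 6.82 with 30°C (limma adjusted p = 0.952). *Prdm16* and *Ebf2*, which set brown and beige identity, differed by 0.04 and -0.27 and were not called.

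Of 16 genes of lipolysis and the lipid droplet, 1 was called, again a share near that over all genes, and the median was 0.22. For 9 of the 16 all arrays with 4°C lay above those with 30°C, beside 17.1% of all genes without overlap in either direction. The call was *Fitm2*, which helps droplets bud from the endoplasmic reticulum (0.68, limma adjusted p = 0.0248, lost without 4°C array 1 or 3 or 30°C array 1 or 2 at 0.068 to 0.12). *Pnpla2*, the triglyceride lipase of fat, differed by 0.08, and of 11 adrenergic and antilipolytic receptors none was called, with the lactate receptor *Hcar1* at 0.97 (limma adjusted p = 0.138). *Angptl4*, a secreted inhibitor of lipoprotein lipase, was lower (-0.75, limma adjusted p = 0.0252, lost without 4°C array 1 or 2 or 30°C array 1 or 2 at 0.0637 to 0.113). Among signals downstream of the receptors, *Prkar2b*, the regulatory subunit of protein kinase A typical of fat, gave 11.25, 11.02, and 11.06 with 4°C and 10.18, 10.38, and 10.50 with 30°C (0.76, limma adjusted p = 0.00722). The adenylyl cyclase *Adcy5* differed by 1.13 (limma adjusted p = 0.0338), a call that held only without 30°C array 3 (0.0705 to 0.131 without any other array).

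Of 14 adipokines and secreted factors, 1 was called higher and 1 lower, beside 3.04% of all genes called in either direction. The 2 differences were of about the same size. *Nrg4*, a secreted ligand of ErbB receptors made by brown and white fat, gave 10.85, 10.59, and 10.66 with 4°C and 8.87, 8.37, and 8.85 with 30°C (2.0, SE 0.17, limma adjusted p = 0.000308). *Sfrp5*, a secreted inhibitor of Wnt ligands that marks enlarged fat cells, gave 5.50, 6.02, and 5.18 with 4°C and 7.65, 7.55, and 7.22 with 30°C (-1.91, SE 0.27, limma adjusted p = 0.00546). Leptin, *Lep*, overlapped between groups, with 10.72, 9.62, and 10.003 with 4°C and 11.02, 10.15, and 11.16 with 30°C (limma adjusted p = 0.868), and *Adipoq* and *Retn* differed by 0.04 and 0.07.

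The circadian clock had the highest share of members called of any list, 10 of 16, with 7 higher and 3 lower, and a median of 0.05 because the directions opposed each other. In the clock, CLOCK or NPAS2 pairs with BMAL1, the product of *Arntl*, to switch on genes through E-box sequences, and among their targets are repressors of the same loop and the output factors *Dbp*, *Tef*, and *Hlf*. *Dbp* gave 10.98, 10.75, and 10.83 with 4°C and 7.16, 7.68, and 7.29 with 30°C (3.48, SE 0.39, limma adjusted p = 0.00138), an 11.1-fold difference. *Tef* gave 8.24, 7.96, and 7.97 with 4°C and 6.77, 7.15, and 6.88 with 30°C (1.12, limma adjusted p = 0.00606), and *Hlf* 7.51, 7.27, and 7.24 with 4°C and 6.04, 6.21, and 6.13 with 30°C (1.21, limma adjusted p = 0.00344). Repressors of the loop moved the same way. *Per3* gave 8.18, 7.99, and 7.95 with 4°C and 6.53, 6.94, and 6.62 with 30°C (1.34, SE 0.19, limma adjusted p = 0.00489). *Nr1d2*, a nuclear receptor that represses *Arntl*, gave 9.47, 9.44, and 9.33 with 4°C and 6.97, 7.78, and 8.01 with 30°C (1.83, SE 0.30, limma adjusted p = 0.00932). *Bhlhe40* and *Bhlhe41*, which compete for E-boxes, differed by 1.0 (limma adjusted p = 0.0104) and 1.49 (limma adjusted p = 0.0153), and *Bhlhe41* was lost without 4°C array 1 or 30°C array 1 (adjusted p = 0.0545 and 0.068).

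The activators were lower. *Arntl* gave 4.78, 5.54, and 4.42 with 4°C, the last below background, and 7.26, 7.23, and 7.43 with 30°C (-2.39, SE 0.43, limma adjusted p = 0.0141). *Npas2* gave 5.46, 6.44, and 5.50 with 4°C and 8.05, 7.21, and 7.68 with 30°C (-1.85, SE 0.31, limma adjusted p = 0.0107), and *Clock* 8.86, 9.07, and 8.96 with 4°C and 9.73, 9.61, and 9.82 with 30°C (-0.75, limma adjusted p = 0.0141). Groups did not overlap for any of the 10 called clock genes, which holds for all 452 called genes. *Arntl* and *Clock* were not called without 4°C array 1 or 3 or 30°C array 1 (adjusted p of 0.0509 to 0.073), nor *Npas2* without 4°C array 1 (0.0587). *Nfil3*, which opposes *Dbp* at the same sites, gave 5.54, 5.51, and 5.53 with 4°C and 6.78, 6.82, and 6.63 with 30°C and was not called (-1.22, SE 0.42, limma adjusted p = 0.176). The arrays of the colder groups, which enter the shared error, ranged from 5.48 to 7.88. *Per1*, *Cry1*, *Rora*, *Csnk1d*, and *Csnk1e* differed by -0.10, -0.07, 0.16, -0.12, and -0.13 and were not called. With –10°C against 30°C 2 of the same 16 genes were called, and with –10°C/–20°C 10, in comparisons that share the 30°C arrays. Over all genes, the share called was 8.34% with –10°C and 18.2% with –10°C/–20°C, beside 3.04% with 4°C. With the name form as a block 4°C had 10 calls, –10°C 0, and –10°C/–20°C 5.

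**Figure D4:**
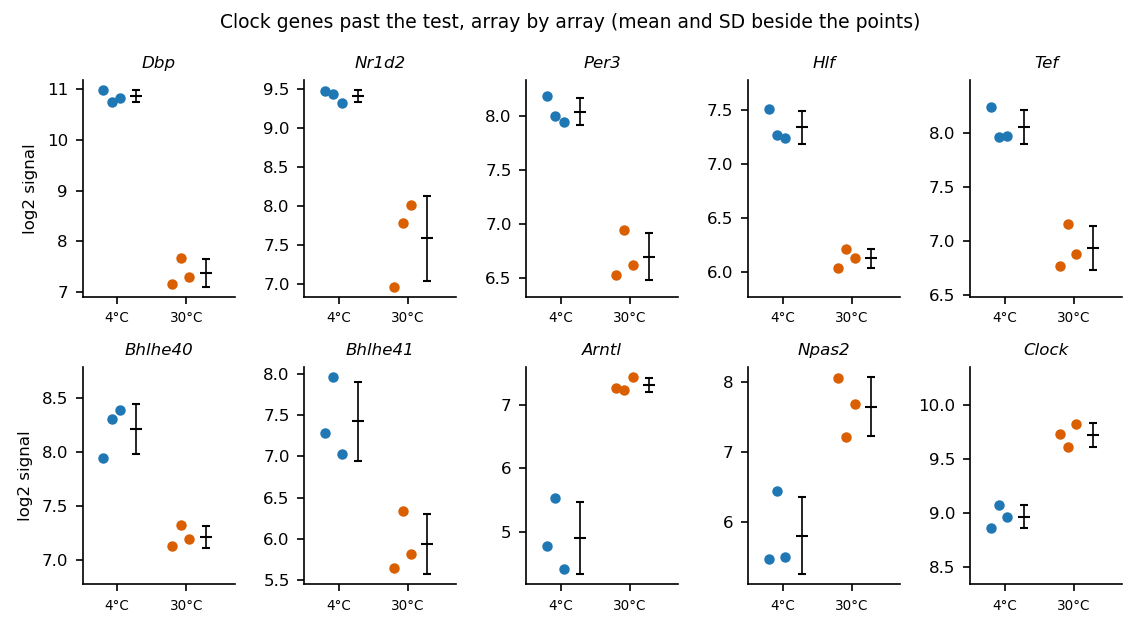
Log2 signals of the 10 called clock genes on the 3 arrays with 4°C (left, blue) and the 3 arrays with 30°C (right, orange), with the mean and SD beside the points and a separate vertical axis in each panel. Dbp, Nr1d2, Per3, Hlf, Tef, Bhlhe40, and Bhlhe41 are higher with 4°C and Arntl, Npas2, and Clock lower, and in none of the 10 do the groups overlap.

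The E-box CACGTG, the same on both strands, was looked for in the RefSeq promoter windows (GRCm38.p6) of the called clock genes, of which 9 of 10 had a window. It was found in 2 genes, *Tef* and *Bhlhe41*, in 3 of 13 windows, and 7.15% of all 32851 windows hold it. The matches are shown with their flanks because both genes were higher with 4°C while the genes of the activators that bind this motif were lower. Capitals mark the motif, and a match is a description of letters and not of binding.
*Bhlhe41*, chr6:145865541-145865600, minus strand, motif starting 153 bases before the gene's start: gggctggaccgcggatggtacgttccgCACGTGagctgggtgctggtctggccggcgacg
*Tef*, chr15:81802519-81802578, plus strand, motif starting 127 bases before a start: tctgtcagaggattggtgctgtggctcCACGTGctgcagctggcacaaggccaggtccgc
*Tef*, chr15:81811249-81811308, plus strand, motif starting 138 bases before another start: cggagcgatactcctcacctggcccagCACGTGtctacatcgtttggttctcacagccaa

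Macrophage genes were lower where they were called, mostly by small amounts. Of 19 macrophage genes, 4 were called lower and none higher, with a median of -0.41. *Cd83*, a surface protein of activated antigen-presenting cells, gave 6.80, 6.90, and 7.22 with 4°C and 7.85, 7.74, and 7.88 with 30°C (-0.85, limma adjusted p = 0.00792). The receptor of colony-stimulating factor 1, *Csf1r*, gave 9.26, 9.22, and 9.23 with 4°C and 9.61, 9.57, and 9.79 with 30°C (-0.42, limma adjusted p = 0.0449). That call, and that of *Folr2* (-0.46, limma adjusted p = 0.044), was lost without any one of the 6 arrays (adjusted p of 0.0648 to 0.149) and with the name form as a block (0.055 for *Csf1r*, 0.062 for *Folr2*), and *Fcgr3* (-0.64) without each but 4°C array 2 (0.0575 to 0.099). *Cd68* (-0.70, limma adjusted p = 0.0502) and *Adgre1*, which encodes F4/80 (-0.66, limma adjusted p = 0.296), were not called, and the resident macrophage markers *Lyve1* and *Timd4* differed by 0.27 and 0.38 and were not called.

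Genes of lipid-laden macrophages included *Mmp12*, the largest decrease among the called genes. Of 17 measured, 4 were called lower, with a median of -0.24. *Mmp12*, the elastase of macrophages, gave 5.81, 6.92, and 4.95 with 4°C and 7.64, 9.23, and 9.63 with 30°C (-2.94, SE 0.56, limma adjusted p = 0.0201). *Atp6v0d2*, a subunit of the lysosomal proton pump, and *Gpnmb*, a membrane glycoprotein of foamy macrophages, differed by -2.15 and -1.88 (limma adjusted p = 0.044 for each), and *Lgals3*, galectin 3, by -0.90 (limma adjusted p = 0.016). For *Mmp12*, *Atp6v0d2*, and *Gpnmb*, 30°C array 1 was the lowest of its group, at 7.64, 6.12, and 7.25. *Mmp12* and *Lgals3* were lost without 4°C array 1 or 3 or 30°C array 2 (adjusted p of 0.0525 to 0.0851), and the other 2 also without 30°C array 3 (0.101 to 0.164). With the name form as a block *Atp6v0d2* and *Gpnmb* were not called (0.0626 and 0.0624), which leaves 2 of the 4 calls. *Trem2*, the lipid receptor that defines these cells, differed by -0.49 and was not called (limma adjusted p = 0.219). The complement receptor *C3ar1* (-0.69, limma adjusted p = 0.00772) and the chemokine *Ccl9* (-0.57, limma adjusted p = 0.008) were lower, and none of 10 genes of antigen presentation was called (median -0.33).

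In the extracellular matrix, thrombospondins and an aggrecanase were lower while collagens were not called. Of 26 matrix genes, 2 were called, both lower, with a median of -0.11, beside 0.942% of all genes called lower. *Thbs2* gave 6.93, 6.91, and 6.93 with 4°C and 8.99, 8.68, and 9.02 with 30°C (-1.97, SE 0.30, limma adjusted p = 0.00715), and *Thbs1* 8.47, 8.86, and 8.86 with 4°C and 10.38, 9.69, and 10.67 with 30°C (-1.52, SE 0.25, limma adjusted p = 0.0101). Both encode secreted proteins that restrain blood vessel growth. *Thbs1* was lost without 4°C array 1 (adjusted p = 0.0554). *Col1a1*, *Col1a2*, and *Col3a1*, the fibrillar collagens, differed by -0.27, -0.31, and -0.12. Of 14 metalloproteinases and inhibitors, 3 were called lower (median -0.46), *Mmp12*, *Adamts5* at 9.07, 9.11, and 9.02 with 4°C and 10.37, 10.20, and 10.45 with 30°C (-1.27, SE 0.18, limma adjusted p = 0.00479), and the inhibitor *Timp4* (-0.84, lost without each array but 30°C array 2 at 0.0521 to 0.0889). The growth factor *Bmp2* was lower (-1.11, limma adjusted p = 0.00566), and endothelial nitric oxide synthase, *Nos3*, was higher (0.61, limma adjusted p = 0.00546).

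Further genes had large differences outside these groups. *Paqr9*, a membrane receptor of the progestin and adiponectin receptor family, gave 8.01, 7.31, and 8.37 with 4°C and 5.37, 5.26, and 5.15 with 30°C (2.64, SE 0.26, limma adjusted p = 0.000703). *Tlcd2* differed by 2.32 (SE 0.33, limma adjusted p = 0.00489) and the potassium channel *Kcnj15* by 1.87 (SE 0.15, limma adjusted p = 0.000262). *Nat8l*, which makes N-acetylaspartate from acetyl-CoA and aspartate, gave 8.29, 7.81, and 8.48 with 4°C and 6.66, 5.88, and 6.19 with 30°C (1.95, SE 0.25, limma adjusted p = 0.00292). *Aspa*, which splits N-acetylaspartate again, differed by 0.80 (limma adjusted p = 0.0191, lost without 4°C array 1 or 30°C array 1 or 2 at 0.0744 to 0.0945), and was named after its values were seen. *Igfals*, which carries insulin-like growth factors in blood, differed by 1.86 (limma adjusted p = 0.0173, lost without 4°C array 1 or 3 or 30°C array 1 or 2 at 0.0543 to 0.0855).

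Among the decreases, the cell cycle inhibitor p21, *Cdkn1a*, gave 6.44, 6.59, and 6.61 with 4°C and 8.76, 8.55, and 8.54 with 30°C (-2.08, SE 0.22, limma adjusted p = 0.00118). The arrays within each group stood close together and far from those of the other. *Peg3*, an imprinted zinc finger gene, gave 7.41, 8.13, and 6.79 with 4°C and 9.38, 9.57, and 9.49 with 30°C (-2.03, SE 0.33, limma adjusted p = 0.00879). The kinases *Dapk1* and *Hipk3* differed by -1.18 and -0.72 (limma adjusted p = 0.00121 for each). The amino acid carrier *Slc7a8* gave 7.77, 8.01, and 7.64 with 4°C and 9.88, 9.0, and 9.20 with 30°C (-1.56, SE 0.26, limma adjusted p = 0.0102), and was lost without 4°C array 1 (adjusted p = 0.0513). Its partner chain *Slc3a2* differed by -0.63 (limma adjusted p = 0.0447), a call lost without each array but 4°C array 2 (0.0562 to 0.177) and with the name form as a block (0.0503). *Klb*, the coreceptor of fibroblast growth factor 21, gave 7.94, 7.90, and 7.81 with 4°C and 8.69, 8.68, and 8.86 with 30°C (-0.86, limma adjusted p = 0.0107).

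Set directly against the –10°C arrays, 4°C differed in 6 genes (0.0404% of those tested), 5 higher with 4°C and 1 lower. *Star*, which moves cholesterol into mitochondria, gave 6.32, 6.57, and 6.26 with 4°C, against 5.03, 5.39, and 5.21 with –10°C (1.17, limma adjusted p = 0.00777), and with 30°C it had 5.03, 4.78, and 4.95. It was higher with 4°C than in every other group. *Klb* was the 1 lower gene, with –10°C at 9.33, 9.61, and 9.18 (-1.49, limma adjusted p = 0.00762). *Per3* (1.44), *Mtss1*, an actin-binding protein (0.88), the kinase *Prkce* (0.96), and *Dennd2d* (1.28) made up the rest. These calls were thin. *Star* and *Klb* were lost without 4°C array 1 or –10°C array 1 (adjusted p = 0.0511 and 0.0526 for both genes), *Dennd2d* without 4°C array 1 or 3 or –10°C array 1 or 2 (0.0607 to 0.0961), *Per3* and *Mtss1* without each but –10°C array 3, and *Prkce* without each but 4°C array 2 (0.0611 to 0.231). Without 4°C array 1 no gene was called, with 849 at an unadjusted p under 0.05. Only 1 of the 3 arrays with 4°C has the letter G in its name, against all 3 with –10°C, and with the name form as a block none of the 6 was called (adjusted p of 0.093 to 0.287) and 0 genes in all, with 724 at an unadjusted p under 0.05. None was called either with only the 6 arrays of the 2 groups in the fit, with 1139 unadjusted.

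Against –10°C/–20°C, 4°C differed in 1452 genes (9.77%), and 147 of the 452 genes called against 30°C were among them. With the name form as a block, which again divides 1 of the 3 arrays with 4°C from the other 2 and none with –10°C/–20°C, 705 genes were called, 77 of the 452 among them. *Cdkn1a* was lower with 4°C than with –10°C/–20°C, where it gave 8.63, 8.94, and 8.79 (-2.24, limma adjusted p = 0.000449). *Pdk4* was lower by more than against 30°C, with –10°C/–20°C at 10.07, 10.30, and 10.66 (-1.97, limma adjusted p = 8.89e-05). *Cidea* was 2.03 lower with 4°C (limma adjusted p = 0.00578, and 0.0549 with the name form as a block), and *Elovl3*, which did not exceed background in any 4°C array, was at 7.67, 9.63, and 9.66 with –10°C/–20°C (limma adjusted p = 0.00139). *Lep*, at 9.62 to 10.72 with 4°C, was at 4.81, 3.94, and 4.16 with –10°C/–20°C (5.81, limma adjusted p = 0.00171). Matrix genes were higher with 4°C than in the coldest group for 17 of 26, macrophage genes for 11 of 19, and antigen presentation for 8 of 10, and thermogenic genes were lower with 4°C for 7 of 22. With the name form as a block these counts were 12, 7, 3, and 2.

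The colder groups were also set against the same 30°C arrays. Over all genes, the share called was 3.04% for 4°C, 8.34% for –10°C, and 18.2% for –10°C/–20°C. Triglyceride synthesis had 8 of 17 members higher at 4°C, 8 at –10°C, and 9 at –10°C/–20°C, an order that the next counts keep, and *Agpat2* differed by 2.16, 2.28, and 2.31. Fatty acid synthesis had 10, 13, and 13 of 19 higher. The respiratory chain had 8, 30, and 28 of 40 higher, the tricarboxylic acid cycle 3, 13, and 13 of 15, and branched-chain amino acid breakdown 2, 11, and 17 of 20. Macrophage genes were lower for 4, 9, and 13 of 19 and matrix genes for 2, 5, and 18 of 26. These 3 comparisons share the 30°C arrays, and the differences between their counts were not tested. In the direct test of 4°C against –10°C no member of these 7 lists was called, and against –10°C/–20°C 2, 5, 5, 2, 8, 11, and 17 were. With the name form as a block 4°C had 404 calls in all, –10°C 314, and –10°C/–20°C 1585, and the counts became 8, 6, and 7 for triglyceride synthesis, 11, 11, and 11 for fatty acid synthesis, 7, 13, and 19 for respiratory subunits, 3, 4, and 6 for enzymes of the citrate cycle, and 2, 4, and 12 for branched-chain amino acid breakdown. Macrophage genes were then lower for 2, 6, and 13 and matrix genes for 2, 3, and 17.

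**Figure D5:**
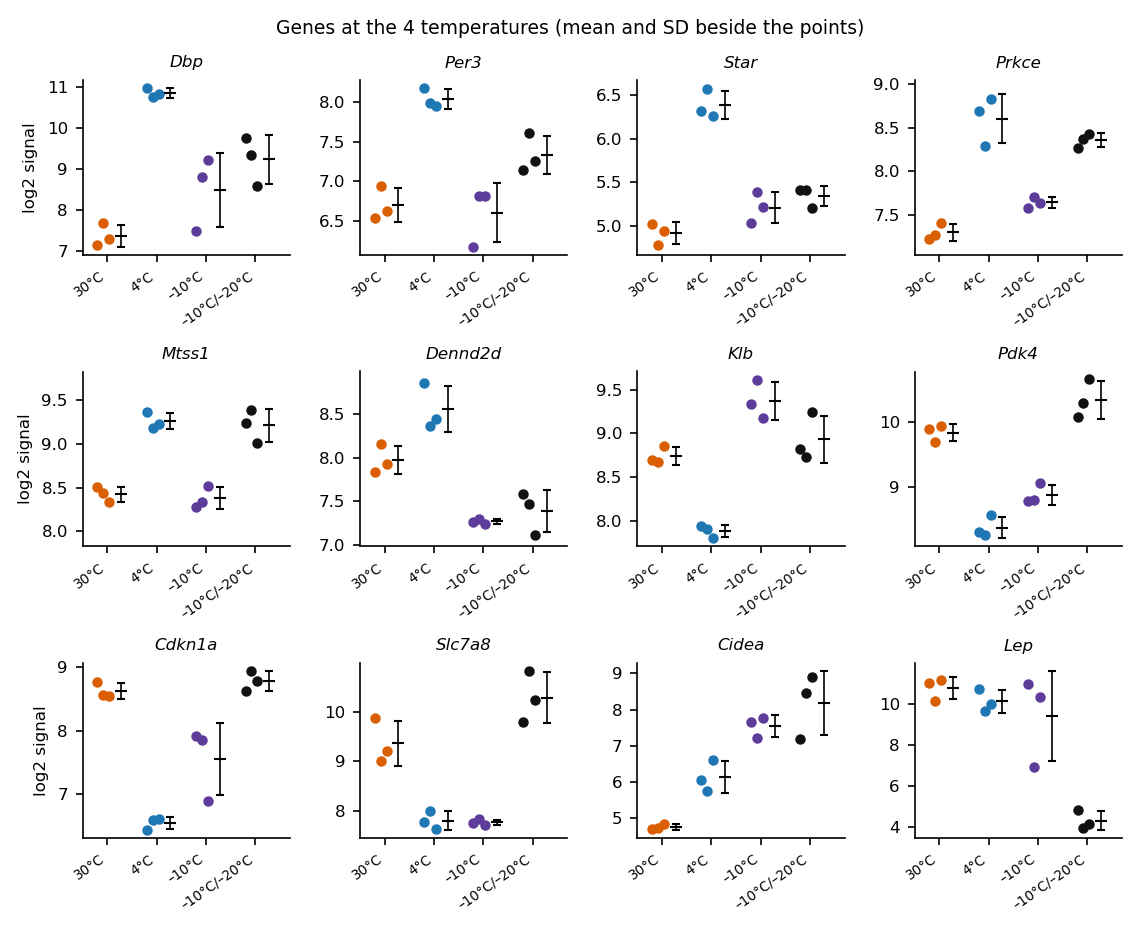
Log2 signals of 12 genes on the 3 arrays of each of the 4 groups, in order of falling temperature along the horizontal axis (30°C at the left, –10°C/–20°C at the right), with the mean and SD beside the points and a separate vertical axis in each panel. Dbp, Per3, and Star are highest and Klb, Cdkn1a, and Pdk4 lowest with 4°C, whereas Cidea and Lep with 4°C lie between 30°C and the coldest group by their means.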

How the data were processed

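Total RNA of eWAT was hybridized by the authors to Affymetrix Mouse Exon 1.0 ST arrays. The deposited log2 values were made by the authors with RMA in Affymetrix Expression Console, per the submitters' processing notes, a method that removes background, equalizes the arrays, and combines the probes of a gene. No version or genome build is given in the sources used here. No further normalization was applied. RMA makes the distributions of the arrays alike, so that a shift shared by most genes could be removed and not be seen. Medians of the arrays compared still ran from 5.22 to 5.44.

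Platform annotation gave 1 symbol for 14996 probe sets, several for 1019, and none for 7317. The last 2 kinds were left out of the gene tests. Background was the 95th percentile of 718 olfactory receptor genes (4.52). Precision is limited by how many arrays there are. Genes were fitted with limma 3.58.1 (lmFit and eBayes, R 4.3.3) over all 12 arrays, with Benjamini-Hochberg adjustment over 14860 genes. Tables and figures used Python 3.11.15, numpy 2.4.6, pandas 2.3.3, and matplotlib 3.10.9. On simulated data for 4°C against 30°C over 14860 genes, 77% of 100 genes changed by a log2 of 1 and 98% of 100 changed by 2 were recovered, with 14 false calls. Simulated noise was independent between genes, whereas on the real arrays a single component (1) explained 48.8% of how genes deviated from their group means, so these are not error rates of the arrays.

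The comparison, the 53 gene lists, and the rule for naming genes were chosen with earlier results of these data known, and no list was tested. The rule named the 12 largest increases and decreases without overlap, the 6 smallest adjusted p in each direction, up to 4 called members of each list (or the 2 brightest where none was called), genes the study names for eWAT, and genes called against –10°C. It gave 148 genes, 109 of them called. Other members of lists were named after their values were seen.

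Alternatives were a trend and robust eBayes, a filter on dim genes, repeated quantile normalization, centring on array medians, only the arrays compared, all probe sets, the mean of probe sets, arrayWeights, the replicate number or the form of array names as a block, the methods' t-test, a 2-fold threshold, and each array left out. The form of the names was read from the header of a supplementary table of the study, of which no value was used. Fits within each form were added after seeing the data. The labels do not say whether replicate numbers pair the arrays. Between 4°C and 30°C, deviations of same-numbered arrays correlated at 0.185, 0.540, and -0.069. Those of arrays with different numbers ran from -0.442 to 0.414. These values are too few to decide on pairing.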

Additional observations from a re-analysis of the deposited data

Results flagged for a closer look

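Expression differed between 4°C and –10°C, by the test of that difference, for *Dennd2d* (log2 difference, 4°C minus –10°C, of 1.28), *Klb* (-1.49), *Mtss1* (0.88), *Per3* (1.44), *Prkce* (0.96), and *Star* (1.17). All 6 calls were lost with the name form (a letter G or none in the array name) as a block (limma adjusted p of 0.093 to 0.287) and with only the arrays of the 2 groups in the fit. Against 30°C, *Klb* was lower with 4°C (-0.86) and higher with –10°C (0.63, limma adjusted p = 0.0212, and 0.138 with the name form as a block). *Dennd2d* had 8.86, 8.37, and 8.45 with 4°C and 7.27, 7.30, and 7.25 with –10°C, and its difference from 30°C was 0.58 with 4°C (limma adjusted p = 0.0715) and -0.70 with –10°C (limma adjusted p = 0.0155, and 0.137 with the block).

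Among the genes called with 4°C against 30°C, 4 were called with the opposite sign with –10°C/–20°C against 30°C, and also differed between the 2 cold groups. They were *Hsd3b7*, an enzyme of bile acid synthesis (4°C minus –10°C/–20°C, 1.0), *Pdk4* (-1.97), *Pnpla7*, a lysophospholipase (-0.78), and *Slc7a8* (-2.48). *Slc7a8* with –10°C/–20°C was at 9.80, 10.82, and 10.23, above its level with 30°C by 0.92 (limma adjusted p = 0.0292). With the name form as a block, all 4 still differed between the 2 cold groups (adjusted p of 0.00257 to 0.0112), but with –10°C/–20°C against 30°C *Slc7a8*, *Hsd3b7*, and *Pdk4* were not called (0.059, 0.109, and 0.274). Against 30°C with 4°C, *Hsd3b7* differed by 0.59 (limma adjusted p = 0.0314) and was not called without any array but 30°C array 3 (0.0511 to 0.149). *Pnpla7* differed by -0.33 (limma adjusted p = 0.0428) and was not called without any of the 6 arrays (0.0621 to 0.139) or with the name form as a block (0.055).

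Probe sets without a gene symbol entered no comparison above. In a fit over all probe sets, 17 of the 7317 were called with 4°C against 30°C, 15 higher and 2 lower, beside 166 higher and 65 lower of 14996 probe sets with 1 symbol.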

How the results depend on the processing

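None of the 452 genes changed sign under any alternative that refitted them, but most alternatives could not have changed a sign. The groups did not overlap in any of the 452, so that leaving out or reweighting arrays keeps the sign. The blocks, the t-test, and the fit of only the arrays compared keep the difference itself. The number of calls moved. Against 30°C the counts (all, higher, lower) were 94, 68, and 26 with only the 6 arrays compared, 252, 184, and 68 probe sets with all probe sets tested, 1873, 1300, and 573 with arrayWeights (heaviest on 30°C array 2 and 4°C array 1, 3.55 and 2.67), and 119, 87, and 32 at 2-fold or more. The methods' t-test called 0, 0, and 0 after adjustment (1611 at an unadjusted p under 0.05). Within the 4 arrays without G in their names the counts were 0, 0, and 0 (2369 unadjusted), and within the 8 with G 11, 7, and 4. Repeated quantile normalization called 310 higher and 237 lower, a share of 56.7% higher beside 69.0%, and centring gave 63.5%. Leaving out 1 array gave 129 to 581 calls, 92 to 493 higher, and 37 to 152 lower. The most calls, 493 higher, came without 30°C array 3. Against –10°C, where 6 genes were called (1065 unadjusted), counts were 0 with only the 2 groups (1139 unadjusted), 2 with all probe sets, 49 with arrayWeights, 0 with the form of the names as a block (724), 0 by the t-test (1188), and 0 to 14 with 1 array left out, 0 without 4°C array 1 or –10°C array 1. Against –10°C/–20°C, counts were 874, 2474 (arrayWeights), 705 (name form), 88 (t-test), 295 (2-fold), and 829 to 1409 with 1 array left out. The causes of these shifts were not tested, beyond the smaller number of arrays or genes that some settings leave. With the replicate number as a block, 476 genes (330 higher, 146 lower) were called against 30°C, 7 against –10°C, and 1548 against –10°C/–20°C, so that the block changed no count by over 1.5 times, but the arrays share only a number. Of values for single genes and counts for lists, 3526 stayed the same, 1052 became weaker, and 99 stronger. For a gene, the same means the same side of the threshold. For a list, it means a count of called members within 1.5 times. Lists without a call and named genes not called count as the same while nothing is called, which raises that number. Of the 109 named genes called, 48 to 94 were still called with 1 of the 6 arrays left out. With only the 6 arrays compared 42 were, by the t-test 0, and with the trend and robust eBayes 108. With 3 arrays a group, few genes of small difference could pass, and genes below background could not be measured.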

Other observations

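Gene families picked by their symbols, after values were seen, added to the mitochondrial genes above. Of 10 measured genes of coenzyme Q synthesis, the lipid electron carrier of the respiratory chain, 5 were called higher with 4°C (median log2 difference 0.44). *Coq9*, a lipid-binding protein of the pathway, gave 9.08, 8.82, and 9.20 with 4°C and 8.31, 8.39, and 8.46 with 30°C (0.64, limma adjusted p = 0.00716), and its call held without any single array. *Coq7* and *Coq10b* differed by 0.99 each, *Coq3* by 0.69, and *Coq8b* by 0.48, and these calls were lost without 4°C array 1 or 3, and except for *Coq10b* without 30°C array 2, for *Coq3* also 30°C array 1, and for *Coq8b* any of the 6 (adjusted p of 0.0501 to 0.19). *Coq8b* was not called either with the name form (a letter G or none in the array name) as a block (0.0713). Of 68 mitochondrial ribosomal proteins, 65 had a positive difference, 8 were called higher, and the median was 0.26.

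Of 26 measured subunits of the proteasome, 1 was called, a share near the 3.04% over all genes. All 26 had a positive difference (median 0.28), and for 17 of them the groups did not overlap, beside 17.1% of all genes in either direction. The call was *Psma1* (0.75, limma adjusted p = 0.048, lost without each array but 30°C array 3 at 0.0744 to 0.188 and, with the name form as a block, at 0.0649). Of 24 lysosomal genes, which hold the cell's other route of protein breakdown, none was called and the median was -0.01.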
